A study of Mus musculus with 34 samples.

Results

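Glucocorticoid-responsive genes are genes whose transcription is known to change when the adrenal steroid corticosterone activates the glucocorticoid receptor. The 7 genes described here are Fkbp5, Tsc22d3, Zbtb16, Sgk1, Klf9, Cdkn1a and Sult1a1. They were chosen by symbol, and all 7 had counts among the 15145 genes listed for adipose tissue and the 13238 listed for heart. The libraries came from C57BL/6J mice. One group (HFCD+FMD) had eaten a high-fat, high-calorie diet with 60% of its calories as fat and, every 4 weeks, a 5-day fasting mimicking diet. A second group (HFCD) had eaten the high-fat diet without those cycles, and the control group a diet with 10% of its calories as fat. From cycle 6 onward, the mice of the HFCD+FMD group ate control diet for 2 days between the fasting mimicking diet and the return to HFCD. Tissue was taken after 11 cycles, 4 days after the last one ended, so that lasting effects of the cycles and effects of the most recent cycle and refeeding cannot be told apart. The mice were 20 to 22 months old. The labels name no fat depot, and they do not tie libraries to the 18 mice of the design.

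On binding hormone, the glucocorticoid receptor leaves a complex of heat shock proteins and immunophilins, enters the nucleus and binds DNA at a palindromic element. Among its targets are genes that limit its own action, genes that dampen inflammation, kinases, transcription factors, cell-cycle inhibitors and enzymes of fuel use. In fat the hormone is known to act on adipocyte differentiation and lipid turnover, and in heart on contraction, substrate choice and growth of cardiomyocytes. The 7 genes are not controlled by this receptor alone. Zbtb16 and Klf9 also take part in adipocyte differentiation, and Cdkn1a is the classic target of the stress-activated transcription factor p53.

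Adipose tissue gave 13 libraries (6 HFCD+FMD, 4 HFCD and 3 control) with totals of 15604982 to 40831656 reads. Heart gave 14 libraries (4 HFCD+FMD, 5 HFCD and 5 control) with totals of 16848195 to 47859170 reads. Mitochondrially encoded genes took 2.2% to 7.47% of the adipose reads in HFCD+FMD, 2.17% to 6.08% in HFCD and 12.6% to 29.3% in control libraries. In heart they took 29.5% to 62% in HFCD+FMD, 36.4% to 71.5% in HFCD and 21.8% to 32.6% in control libraries. The summed level of 8 cardiomyocyte markers was 30910 to 58620 CPM (reads of a gene scaled to a common library total) in heart. Only 7 of these markers had counts in adipose tissue, with a summed level of 2.99 to 130.9 CPM. The 8 adipocyte markers summed to 18190 to 48260 CPM in adipose tissue. The heart libraries fell into 3 sets (A, B and C). In set A were HFCD replicates 1 to 4 with control replicates 2, 3 and 5. In set B were HFCD+FMD replicate 1 with control replicates 4 and 6. In set C the HFCD+FMD hearts 2, 3 and 5 stood with HFCD heart 5.

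The promoter sequences below show where the receptor's element (Sgk1), or only its 6-base arm (Sult1a1), occurs just before the start sites of 2 of the genes. They are shown because Sult1a1 was the gene with the clearest difference between diets, and because the Sgk1 window held the one complete element found. The element was searched as AGAACA, any 3 bases and TGTTCT, a palindrome that reads the same on both strands, and its 6-base arm as AGAACA on both strands. RefSeq promoters of build GRCm38.p6 were found for 6 of the 7 genes, in 14 windows of 250 bases before a start site; Zbtb16 had no entry. The complete element stood in 1 of these 14 windows and in 0.00913% of all 32851 promoter windows (3 windows). The arm stood in 5 of the 14 windows, and in 16.1% of all windows. The windows of Fkbp5, Klf9 and Cdkn1a held neither.

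The Sgk1 window lies at chr10:21993640-21993889 on the plus strand, and is 1 of 6 windows listed for that gene. The Sult1a1 window lies at chr7:126676419-126676668 on the minus strand. Both are written 5′ to 3′, with the start site following the last base, and capitals mark the element or its arm. In the Sgk1 window the complete element begins 189 bases before the start site, and a further arm begins at 242 bases. The arms of the complete element are counted within it. In the Sult1a1 window arms begin 212 and 34 bases before the start site. A match of letters is a description of the window and not evidence of binding.
Sgk1: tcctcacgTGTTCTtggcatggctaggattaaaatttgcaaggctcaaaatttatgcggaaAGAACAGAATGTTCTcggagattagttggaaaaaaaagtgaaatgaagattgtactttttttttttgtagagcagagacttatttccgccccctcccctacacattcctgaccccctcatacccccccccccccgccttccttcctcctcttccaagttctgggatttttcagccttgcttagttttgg
Sult1a1: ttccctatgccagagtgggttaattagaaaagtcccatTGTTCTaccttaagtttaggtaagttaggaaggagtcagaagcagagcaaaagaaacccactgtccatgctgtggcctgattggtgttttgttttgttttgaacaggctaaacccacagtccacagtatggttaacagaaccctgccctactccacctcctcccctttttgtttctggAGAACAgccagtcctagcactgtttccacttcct

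Read counts were scaled to CPM with a factor per library that aligns the bulk of the genes (TMM). Levels of different genes were compared as CPM per kilobase of exon, as mean ± SD over the libraries of 1 tissue. In adipose tissue Sult1a1 stood highest at 180 ± 85.0 CPM per kb (n = 13). It was followed by Tsc22d3 (49.1 ± 15.7), Cdkn1a (41.9 ± 8.52), Klf9 (34.4 ± 8.48), Zbtb16 (26.9 ± 10.6), Sgk1 (14.6 ± 4.84) and Fkbp5 (10.2 ± 4.67). Apart from the steps from Sult1a1 to Tsc22d3 and from Zbtb16 to Sgk1, neighbours in that order lay closer together than their SDs. In heart, where the scaling was done separately, Klf9 (27.1 ± 3.74 CPM per kb, n = 14), Zbtb16 (22.5 ± 6.63), Tsc22d3 (19.4 ± 6.54), Sult1a1 (18.6 ± 7.41), Sgk1 (17 ± 4.40) and Cdkn1a (12.2 ± 5.68) formed a close series. Neighbours among these 6 lay closer together than the larger of their SDs, and Fkbp5 was lowest at 3.38 ± 1.54 CPM per kb.

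In adipose tissue, Sult1a1 and Klf9 were lower in both groups of mice on high-fat diet than in control mice, and the other 5 genes did not pass the test. Diets were compared with the quasi-likelihood test of edgeR, a count model fitted across all genes, with Benjamini-Hochberg adjustment over the 15112 adipose genes tested and a threshold of 0.05. In HFCD+FMD against control 2 of the 7 genes passed, both lower, where 19.7% of all genes passed. For HFCD against control, the same 2 genes passed, both lower, where 30.0% of all genes passed, so that this count stood close to the share in the whole tissue. For HFCD+FMD against HFCD, none of the 7 passed in edgeR, DESeq2 or limma, where 0.205% of all genes passed in edgeR. At an unadjusted p below 0.05 in edgeR there was 1 of the 7, Sgk1, beside 1693 of all 15112 genes. The comparisons share libraries, and their results are therefore not independent of each other. In these bulk libraries, fewer cells of a type and less RNA per cell cannot be told apart.

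Sult1a1 encodes a cytosolic sulfotransferase that conjugates phenols and catecholamines (ENSMUSG00000030711, chr7:126672865-126676432 in GRCm38, minus strand). Its level in the 6 adipose HFCD+FMD libraries was 165.5 CPM at the lowest, 210.5 at the median and 233.3 at the highest. The 4 HFCD libraries held 166.5, 230.5, 214.9 and 230.9 CPM, and the 3 control libraries 543.5, 473.5 and 450.3 CPM. Every library from a high-fat diet lay below every control library, and the HFCD+FMD and HFCD libraries covered nearly the same range. The level averaged 202.2 ± 27.9 CPM in HFCD+FMD (SD, n = 6), 210.7 ± 30.4 CPM in HFCD (n = 4) and 489.1 ± 48.5 CPM in control (n = 3). The log2 fold change of HFCD+FMD over control was -1.27 (SE 0.14, edgeR adjusted p 0.000966), which leaves 0.413 of the control level. That of HFCD over control was -1.21 (SE 0.16, adjusted p 0.000564), or 0.431 of the control level. Between HFCD+FMD and HFCD it was -0.06 (SE 0.13, adjusted p 0.903). Both differences from control passed in every alternative fit, including each fit with 1 library left out. Exons of Sult1a1 share 61 bases with Sgf29, a chromatin reader on the opposite strand. Sgf29 averaged 17.4 CPM in HFCD+FMD, 15.2 CPM in HFCD and 16.6 CPM in control adipose libraries, and passed in none of the comparisons.

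Klf9 encodes a Krüppel-like transcription factor that is induced by glucocorticoids and by thyroid hormone (ENSMUSG00000033863, chr19:23141226-23168134, plus strand). The HFCD+FMD libraries held 109.6 CPM at the lowest, 144.2 at the median and 201.1 at the highest, the HFCD libraries 132.2, 150.3, 156.0 and 151.3 CPM, and the control libraries 238.6, 201.9 and 221.3 CPM. As for Sult1a1, no library of either high-fat group reached the control range, although the highest HFCD+FMD library came within 1 CPM of it. On the log2 scale the fold change was -0.56 for HFCD+FMD over control (SE 0.18, edgeR adjusted p 0.0431) and -0.58 for HFCD over control (SE 0.19, adjusted p 0.0381). It was 0.02 for HFCD+FMD over HFCD (SE 0.16, adjusted p 0.969). These calls were near the threshold. The call for HFCD over control was lost without any 1 of HFCD replicates 1 to 4 or control replicates 1, 3 and 5, with adjusted p between 0.0577 and 0.127. The call for HFCD+FMD over control was lost without any 1 of HFCD+FMD replicates 3 to 6, of the 4 HFCD libraries or of the 3 control libraries, with adjusted p between 0.052 and 0.167.

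Other properties of the adipose libraries differed between the same groups. Besides the mitochondrial share given above, the 8 adipocyte markers summed to 18190 to 25300 CPM in HFCD+FMD, 22890 to 27320 CPM in HFCD and 30210 to 48260 CPM in control libraries. Of these markers 3 fell and 1 rose in HFCD+FMD against control, and 4 fell and 1 rose in HFCD against control. The marker that rose in both was Lep, the gene of leptin. The 8 macrophage markers summed to 1069 to 3566 CPM in HFCD+FMD, 2404 to 4650 CPM in HFCD and 264.2 to 1356 CPM in control libraries, with 4 and 7 of the 8 rising against control. No adipocyte or macrophage marker was at 0 in any adipose library. Of 6 mesothelial markers 0 passed in HFCD+FMD and 5 fell in HFCD, each against control, with sums of 29.2 to 202.4 CPM in HFCD+FMD, 22.2 to 116.7 CPM in HFCD and 186.1 to 417.7 CPM in control libraries. Of 6 fibroblast markers 3 rose in each comparison, with sums of 3257 to 5724 CPM in HFCD+FMD, 3431 to 6111 CPM in HFCD and 2473 to 4880 CPM in control. Of 6 endothelial markers 3 rose in HFCD+FMD and 1 in HFCD, with sums of 1068 to 2400 CPM in HFCD+FMD, 1221 to 1424 CPM in HFCD and 800.5 to 953.8 CPM in control. Of 6 brown adipocyte markers 2 fell in each comparison, with sums of 11.2 to 19.9 CPM in HFCD+FMD, 10.2 to 25.9 CPM in HFCD and 9.63 to 282.4 CPM in control, the highest in control replicate 1. The part of these shifts in the levels of Sult1a1 and Klf9 was not tested. With mitochondrially encoded genes removed before scaling, both genes still passed in both comparisons.

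Zbtb16 encodes PLZF, a zinc-finger transcription factor that promotes brown-like differentiation in adipocytes (ENSMUSG00000066687, chr9:48654297-48836222, minus strand). Its HFCD libraries lay apart from the control libraries, and its HFCD+FMD libraries did not. The HFCD+FMD libraries held 42.6 CPM at the lowest, 144.4 at the median and 200.3 at the highest, the HFCD libraries 79.6, 119.5, 107.6 and 102.8 CPM, and the control libraries 198.3, 225.8 and 193.1 CPM. All HFCD libraries lay below all control libraries, whereas HFCD+FMD libraries reached into the control range at their top and lay below every HFCD library in replicate 4. The log2 fold change was -0.59 for HFCD+FMD over control (SE 0.34, edgeR adjusted p 0.223), 0.41 for HFCD+FMD over HFCD (SE 0.32, adjusted p 0.658) and -1.01 for HFCD over control (SE 0.37, adjusted p 0.0557). The last of these missed the threshold in the shared fit. It passed without HFCD+FMD replicate 4 (-1.01, adjusted p 0.00465), with only the 2 diets compared in the fit (-1.0, adjusted p 0.00312) and in DESeq2 (-1.02, adjusted p 0.0228). With Sult1a1 and Klf9, Zbtb16 was 1 of 3 genes without overlap between HFCD and control, where 39.5% of all genes had none. For HFCD+FMD and control there were 2 such genes, where 21.0% of all genes had none, and for HFCD+FMD and HFCD there were 0, where 3.34% had none.

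Sgk1 encodes a serine/threonine kinase that controls sodium channels and is induced by glucocorticoids and mineralocorticoids (ENSMUSG00000019970, chr10:21882184-21999903, plus strand). Its lowest levels were in HFCD+FMD, at 33.2 CPM at the lowest, 50.5 at the median and 79.8 at the highest. The HFCD libraries held 95.2, 115.9, 71.3 and 83.7 CPM and the control libraries 92.6, 74.9 and 76.9 CPM. In the HFCD+FMD group, 5 of 6 libraries lay below all others, and replicate 4, with 79.8 CPM, lay among them. The fold change (log2) was -0.78 for HFCD+FMD over HFCD (SE 0.22, unadjusted p 0.00378, edgeR adjusted p 0.209), -0.61 for HFCD+FMD over control (SE 0.24, adjusted p 0.0891) and 0.17 for HFCD over control (SE 0.27, adjusted p 0.658). None passed. Without HFCD+FMD replicate 4 the difference from control was -0.76 (adjusted p 0.0339).

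Fkbp5 encodes a co-chaperone that lowers the receptor's affinity for hormone and is itself induced by the receptor, which makes it a feedback inhibitor (ENSMUSG00000024222, chr17:28399094-28517527, minus strand). Its adipose level was 46.7 CPM at the lowest, 87.1 at the median and 138.9 at the highest in HFCD+FMD, 67.5, 216.1, 62.1 and 82.1 CPM in HFCD, and 71.2, 104.3 and 125.8 CPM in control libraries. The 3 diets overlapped, and the single highest library was HFCD replicate 2. Log2 fold changes were -0.20 for HFCD+FMD over control (SE 0.40, edgeR adjusted p 0.746), -0.29 for HFCD+FMD over HFCD (SE 0.36, adjusted p 0.804) and 0.09 for HFCD over control (SE 0.43, adjusted p 0.890).

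Tsc22d3 encodes GILZ, a leucine-zipper protein that carries part of the anti-inflammatory action of glucocorticoids (ENSMUSG00000031431, chrX:140539528-140600659, minus strand). The HFCD+FMD libraries held 125.1 CPM at the lowest, 190.0 at the median and 255.5 at the highest, the HFCD libraries 198.9, 327.3, 177.6 and 158.5 CPM and the control libraries 165.7, 272.3 and 330.1 CPM. The diets overlapped here too. Log2 fold changes were -0.43 for HFCD+FMD over control (SE 0.29, edgeR adjusted p 0.300), -0.18 for HFCD+FMD over HFCD (SE 0.27, adjusted p 0.840) and -0.25 for HFCD over control (SE 0.32, adjusted p 0.573).

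Cdkn1a encodes p21, an inhibitor of cyclin-dependent kinases (ENSMUSG00000023067, chr17:29090976-29100727, plus strand). The HFCD+FMD libraries held 120.2 CPM at the lowest, 137.2 at the median and 181.9 at the highest, the HFCD libraries 121.1, 207.3, 159.4 and 173.9 CPM and the control libraries 96.3, 164.3 and 134.8 CPM. No diet stood apart. Log2 fold changes were 0.15 for HFCD+FMD over control (SE 0.20, edgeR adjusted p 0.607), -0.18 for HFCD+FMD over HFCD (SE 0.18, adjusted p 0.744) and 0.33 for HFCD over control (SE 0.21, adjusted p 0.258). Its exons share 273 bases with AC167363.2, a transcript on the opposite strand, and whether counting used strand is not given in the sources used here.

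**Figure D1:**
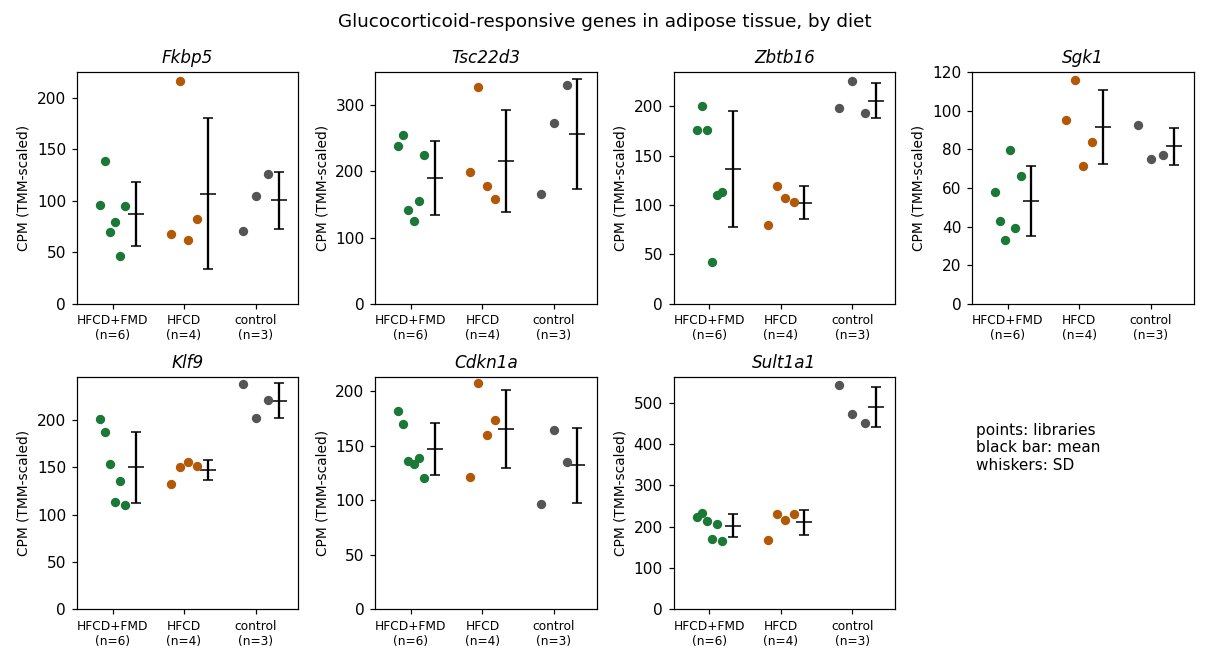
Levels of the 7 genes in adipose tissue, in TMM-scaled CPM on the vertical axis of each panel, for HFCD+FMD (n = 6), HFCD (n = 4) and control (n = 3). Points are libraries, black bars are means and whiskers are SD; all Sult1a1 points of HFCD+FMD and HFCD lie between 165.5 and 233.3 CPM, below the control points at 450.3 CPM and more.

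The 7 genes were set beside 30 other genes reported to respond to glucocorticoids, of which 29 were tested in adipose tissue. More of these genes fell than rose on high-fat diet. The list was chosen with earlier results of these data known, so its counts describe these libraries and are no independent test. In HFCD+FMD against control 11 of 29 fell and 0 rose, with a median log2 fold change of -0.52, against 0.00 over all genes, where 9.25% fell and 10.5% rose. In HFCD against control 8 of 29 fell and 1 rose, with a median of -0.55, against 0.00 over all genes, where 14.2% fell and 15.7% rose. Without control replicate 1 the genes that fell numbered 4 in HFCD+FMD and 5 in HFCD, and without control replicate 5 they numbered 7 in HFCD+FMD. In HFCD+FMD against HFCD 0 of 29 passed in edgeR, DESeq2 or limma in either direction, where 0.179% of all genes fell and 0.0265% rose in edgeR, with a median of -0.16. The median of the 7 genes themselves was -0.56 in HFCD+FMD against control, -0.18 in HFCD+FMD against HFCD and -0.25 in HFCD against control.

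Several of the genes that fell encode enzymes of fuel metabolism. Glul, glutamine synthetase, averaged 1485 ± 333 CPM in HFCD+FMD (SD, n = 6), 1308 ± 272 CPM in HFCD (n = 4) and 3005 ± 499 CPM in control (n = 3). Its log2 fold change was -1.02 in HFCD+FMD (edgeR adjusted p 0.00815) and -1.20 in HFCD (adjusted p 0.00335), each over control. Lpin1, a phosphatidate phosphatase of triglyceride synthesis, averaged 428 ± 105 CPM in HFCD+FMD, 432.5 ± 71.2 CPM in HFCD and 842.3 ± 154 CPM in control, with log2 fold changes of -0.98 (adjusted p 0.00832) and -0.96 (adjusted p 0.00760) over control. Pck1, which in fat supplies glycerol for triglycerides, fell by 1.61 and 1.46 on the log2 scale in HFCD+FMD and in HFCD, and both calls were lost without control replicate 1 (adjusted p 0.0728 and 0.0819). Neither Glul nor Lpin1 lost a call when 1 library was left out.

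The list also held regulators. Foxo1, a transcription factor restrained by insulin, averaged 212.8 ± 61.3 CPM in HFCD+FMD, 162.4 ± 12.5 CPM in HFCD and 355.1 ± 18.4 CPM in control, with log2 fold changes of -0.74 (edgeR adjusted p 0.0248) and -1.13 (adjusted p 0.00396) over control. Dusp1, a phosphatase of MAP kinases, fell in HFCD+FMD by 1.05 on the log2 scale (adjusted p 0.00604), at 67.4 ± 12.5 CPM in HFCD+FMD, 93.2 ± 25.9 CPM in HFCD and 139.5 ± 19.8 CPM in control. Per1, a repressor of the circadian clock, averaged 111 ± 22.8 CPM in HFCD+FMD, 96.7 ± 18.0 CPM in HFCD and 141.2 ± 12.5 CPM in control. It passed in HFCD over control (-0.55, adjusted p 0.0472) and not in HFCD+FMD over control (-0.35, adjusted p 0.175), and the call in HFCD was lost without any 1 of HFCD+FMD replicates 3 and 5, HFCD replicates 1, 2 and 3 or the 3 control libraries. Pdk4, which spares glucose by inhibiting pyruvate dehydrogenase, did not pass (-0.71, adjusted p 0.334 in HFCD+FMD and -0.98, adjusted p 0.196 in HFCD, each over control). Anxa1, an anti-inflammatory phospholipid-binding protein abundant in myeloid cells, was the gene that rose, at 468.4 ± 143 CPM in HFCD+FMD, 788.2 ± 148 CPM in HFCD and 316.9 ± 153 CPM in control. Its log2 fold change in HFCD over control was 1.31 (adjusted p 0.0127), and 1.02 without control replicate 1 (adjusted p 0.0532).

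**Figure D2:**
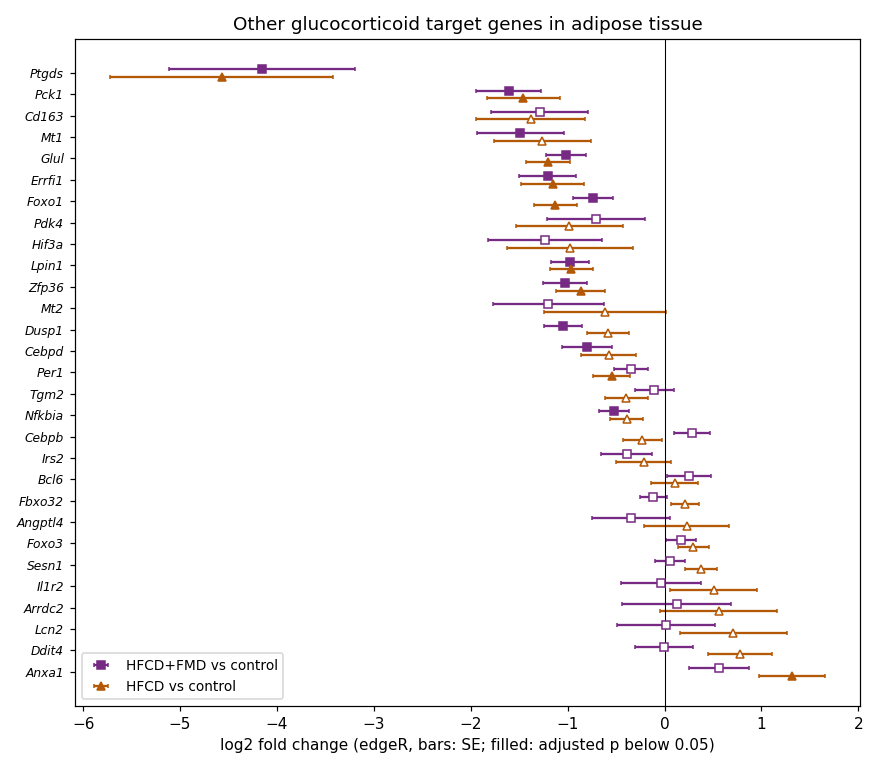
Log2 fold changes over control (horizontal axis, edgeR, bars are SE) of the 29 other glucocorticoid target genes tested in adipose tissue, squares for HFCD+FMD and triangles for HFCD. Filled symbols have an adjusted p below 0.05; those of Glul, Lpin1, Foxo1 and Pck1 lie left of 0 in both groups.

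The receptor and its cofactors were read from a second list of 27 genes. The receptor gene itself, Nr3c1, averaged 244.2 ± 43.6 CPM in HFCD+FMD, 195.0 ± 30.7 CPM in HFCD and 214.4 ± 17 CPM in control adipose libraries, and passed in none of the comparisons (edgeR adjusted p 0.416 to 0.563). Hsd11b1, the enzyme that regenerates active hormone inside cells, did not pass either, at 71.6 ± 4.24 CPM in HFCD+FMD, 65.8 ± 8.40 CPM in HFCD and 78.2 ± 9.04 CPM in control. Nr3c2, the related mineralocorticoid receptor, was higher in both high-fat groups, at 14.4 ± 1.43 CPM in HFCD+FMD, 13.8 ± 2.31 CPM in HFCD and 9.74 ± 1.16 CPM in control. Its log2 fold change over control was 0.56 in HFCD+FMD (adjusted p 0.0185) and 0.50 in HFCD (adjusted p 0.0260), and both calls were lost without control replicate 1 (adjusted p 0.0967 and 0.101). The call in HFCD was also lost without HFCD replicate 1 (0.38, adjusted p 0.0680) and with only the 2 diets in the fit (adjusted p 0.0606).

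Chaperones of the receptor complex were among the genes that fell. Of the 27 genes, 3 rose and 4 fell in HFCD+FMD against control (median log2 fold change -0.04), and 3 rose and 9 fell in HFCD against control (median -0.25). Over all genes 10.5% rose and 9.25% fell in HFCD+FMD, and 15.7% rose and 14.2% fell in HFCD. Without control replicate 3 the genes that fell in HFCD numbered 5, and without control replicate 1 the genes that rose numbered 1 in each comparison. The 4 falls in HFCD+FMD came to 2 without any 1 of HFCD+FMD replicates 2 and 6, HFCD replicate 1 or the 3 control libraries. Bag1, a co-chaperone of Hsp70, averaged 155.6 ± 15.7 CPM in HFCD+FMD, 121.0 ± 4.23 CPM in HFCD and 235.1 ± 35.8 CPM in control, with log2 fold changes of -0.60 (edgeR adjusted p 0.00615) and -0.96 (adjusted p 0.000564) over control. Hsp90aa1, the inducible Hsp90, averaged 59.9 ± 3.51 CPM in HFCD+FMD, 51.3 ± 2.49 CPM in HFCD and 78.7 ± 3.99 CPM in control, with log2 fold changes of -0.39 (adjusted p 0.00809) and -0.62 (adjusted p 0.000876). Ptges3, the p23 co-chaperone, fell by 0.62 in HFCD on the log2 scale (adjusted p 0.00104). The coactivator gene Ncoa3 rose in both groups. In HFCD+FMD against HFCD none of the 27 passed in edgeR or limma. DESeq2 called 7 of them, all higher, among 302 genes called of the 15112 in the fit. The edgeR median was 0.22, against 0.01 over all genes, with 22 of 27 fold changes above 0. The share of all genes above 0 is not given here.

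Targets of p53 were read beside Cdkn1a, which answers to both factors. Of 19 such genes 2 rose and 2 fell in HFCD+FMD against control, and 1 rose and 1 fell in HFCD against control, where the shares over all genes were those given above (10.5% and 9.25% in HFCD+FMD, 15.7% and 14.2% in HFCD). The counts for HFCD+FMD were unstable, with 0 to 4 rises and 0 to 3 falls when 1 library was left out, both at 0 without control replicate 1 or 3, and 5 rises in DESeq2. The direct target Mdm2, the ubiquitin ligase of p53, averaged 51.4 ± 8.76 CPM in HFCD+FMD, 54.3 ± 5.25 CPM in HFCD and 46 ± 3.58 CPM in control, and Ccng1, cyclin G1, averaged 362 ± 61.2, 312.4 ± 15.1 and 330.7 ± 61.7 CPM in the same order of diets. Neither passed in any adipose comparison. Of 25 relatives of the 7 genes by family, 19 were tested in adipose tissue, with 1 rise and 2 falls in HFCD+FMD against control and 2 rises and 4 falls in HFCD against control, beside the same shares over all genes. Without control replicate 1 there were 0 rises and 0 falls in HFCD+FMD and 1 rise and 1 fall in HFCD, and without control replicate 3 there were 2 falls in HFCD. The falls in HFCD+FMD also came to 0 without HFCD+FMD replicate 4. Among them Klf15, a Krüppel-like factor of amino-acid and lipid metabolism, averaged 86.2 ± 38.6 CPM in HFCD+FMD, 60.7 ± 1.89 CPM in HFCD and 143.3 ± 28 CPM in control. Its log2 fold change was -0.73 in HFCD+FMD (edgeR adjusted p 0.119) and -1.24 in HFCD (adjusted p 0.0200), and the call in HFCD did not hold when control replicate 1 (adjusted p 0.0570) or 3 (adjusted p 0.0699) was left out.

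In heart none of the 7 genes passed in any comparison, and few genes of any kind did. In HFCD+FMD hearts against control 0 of 7 passed, where 0.0227% of all 13230 genes tested passed in edgeR. For HFCD+FMD against HFCD 0 of 7 passed, where 0.106% of all genes passed. For HFCD against control 0 of 7 passed, where 0% of all genes passed in edgeR, 1687 genes had an unadjusted p below 0.05 and DESeq2 called 61. DESeq2 and limma also called 0 of the 7 in each comparison. At an unadjusted p below 0.05 edgeR had 2, 3 and 1 of the 7 in these 3 comparisons, beside 1254, 1454 and 1687 of all 13230 genes. The heart fit held the library set as a term, and in it only HFCD+FMD replicate 1 and HFCD replicate 5 tie HFCD+FMD to the other diets. The CPM of single hearts given below, and the overlap between diets, were not adjusted for set.

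Sult1a1, Cdkn1a and Fkbp5 had lower fitted levels in HFCD+FMD than in HFCD by more than 1 on the log2 scale, without passing. Sult1a1 stood at 15.9, 19.7, 17.4 and 18.9 CPM in the HFCD+FMD hearts, at 21.4, 35.1, 33.6, 28.4 and 48.0 CPM in the HFCD hearts and at 50.8, 16.9, 27, 25.5 and 33.7 CPM in the control hearts. All HFCD+FMD hearts lay below all HFCD hearts, and 4 of 5 control hearts lay above every HFCD+FMD heart. The log2 fold change was -1.17 for HFCD+FMD over HFCD (SE 0.33, edgeR adjusted p 0.157), -1.15 for HFCD+FMD over control (SE 0.35, adjusted p 0.287) and 0.02 for HFCD over control (SE 0.26, adjusted p 0.978). The first of these passed with only the 2 diets in the fit (-1.36, adjusted p 0.0363) and without control replicate 2 (-1.38, adjusted p 0.0234), and was -0.86 without HFCD replicate 5 (adjusted p 0.960) and -0.89 without the set term (adjusted p 0.324). HFCD replicate 5 and control replicate 2, with the highest Sult1a1 levels, also had the highest sums of adipocyte markers in heart, at 1626 and 1358 CPM. That sum was 645.9 to 756.7 CPM in all HFCD+FMD hearts, 832.5 to 972.5 CPM in the other HFCD hearts and 559.1 to 734.7 CPM in the other control hearts. HFCD replicate 5 and control replicate 2 also had the highest blood marker sums in heart, at 907.3 and 1030 CPM. The highest macrophage sum was in HFCD replicate 5 (332 CPM), and the highest brown adipocyte sum in control replicate 2 (1123 CPM). In the fit, single adipocyte markers differed more than their sum. Over the 7 tested, the median log2 fold change was -7.55 for HFCD+FMD over control, -5.25 for HFCD+FMD over HFCD and -2.3 for HFCD over control. In the first 2 comparisons 0 of 7 were above 0 and 1 passed as lower, where 0.0227% and 0.106% of all genes did. In HFCD+FMD hearts 3 of the 7 were at 0 in at least 1 library. These fold changes come from the fit with the set term. Within set C it sets the HFCD+FMD hearts against HFCD replicate 5 alone, the heart with the highest adipocyte sum. Values for these markers without that heart, or without the set term, are not given here. The part of fat attached to the heart, of blood or of other cell types in the Sult1a1 levels was not tested.

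Cdkn1a had 30.1, 26.2, 21.8 and 43.1 CPM in HFCD+FMD hearts, 24.8, 67.1, 43, 25.7 and 95.7 CPM in HFCD hearts and 52.0, 32, 40.2, 54.3 and 51.4 CPM in control hearts. The HFCD hearts were widely spread, with HFCD replicate 5 highest. The log2 fold change of HFCD+FMD over HFCD was -1.18 (SE 0.40, edgeR adjusted p 0.243), and -0.40 without HFCD replicate 5 (adjusted p 0.961). That of HFCD+FMD over control was -1.16 (SE 0.42, adjusted p 0.394). It was -0.62 without HFCD replicate 5, -1.86 without HFCD+FMD replicate 1 and -0.60 without the set term, and passed in none of these. The p53 target Mdm2 differed by -0.01 between HFCD+FMD and HFCD (SE 0.23, adjusted p 0.994). Ccng1, the other p53 target named above, had 1092, 1314, 1667 and 1550 CPM in HFCD+FMD hearts, 906.7, 1053, 1365, 1130 and 848.1 CPM in HFCD hearts and 572.9, 816.6, 864.5, 797.3 and 1005 CPM in control hearts. Every HFCD+FMD heart lay above every control heart, where 9.02% of all genes had no overlap. These levels were not adjusted for library set, and most HFCD+FMD hearts were in set C, which held no control heart. Its log2 fold change was 0.35 over HFCD (SE 0.29, adjusted p 0.761) and 0.76 over control (SE 0.29, adjusted p 0.406), opposite in sign to those of Cdkn1a, and neither passed.

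Fkbp5 had 29.3, 35.8, 12.6 and 17.5 CPM in HFCD+FMD hearts, 16.7, 61.7, 24.4, 29.3 and 44.2 CPM in HFCD hearts and 29.5, 20.2, 48.9, 27 and 51.1 CPM in control hearts. All diets overlapped. The log2 fold change was -1.06 for HFCD+FMD over HFCD (SE 0.45, edgeR adjusted p 0.407) and -0.71 for HFCD+FMD over control (SE 0.48, adjusted p 0.673). Without the set term the first was -0.56 (adjusted p 0.688).

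Klf9 had 107.3, 113.9, 113.6 and 115.4 CPM in HFCD+FMD hearts, 128.0, 161.1, 133.9, 127.4 and 124.7 CPM in HFCD hearts and 160.3, 113.9, 138.6, 135.2 and 155.9 CPM in control hearts. Its levels were the most even of the 7 genes. All HFCD+FMD hearts lay below all HFCD hearts, with a log2 fold change of -0.26 (SE 0.18, edgeR adjusted p 0.688). Klf9 and Sult1a1 were the 2 of 7 genes without overlap in this comparison, where 4.65% of all genes had none; for HFCD+FMD and control, and for HFCD and control, there were 0 of 7, where 9.02% and 7.19% of all genes had none.

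Tsc22d3 was higher in most control hearts than on either high-fat diet. It had 95.0, 82.2, 43.4 and 70.5 CPM in HFCD+FMD hearts, 57.2, 97.3, 62.8, 74.1 and 48.2 CPM in HFCD hearts and 97.5, 73.6, 124.9, 115.9 and 137.0 CPM in control hearts. The difference did not pass, at -0.24 for HFCD+FMD over control (SE 0.29, edgeR adjusted p 0.820) and -0.48 for HFCD over control (SE 0.22, adjusted p 0.388). Zbtb16 had 93.1, 123.9, 126.3 and 75.3 CPM in HFCD+FMD hearts, 118.4, 172.6, 128.4, 138.4 and 81.5 CPM in HFCD hearts and 57.3, 109.4, 132.4, 122.3 and 185.9 CPM in control hearts. Sgk1 had 84.2, 64.0, 81.4 and 100.1 CPM in HFCD+FMD hearts, 60.6, 81.1, 74.7, 106.9 and 42.4 CPM in HFCD hearts and 95.1, 119.3, 68.3, 76.0 and 112.5 CPM in control hearts. For Zbtb16 and Sgk1 all 3 diets overlapped, with adjusted p from 0.450 to 0.996.

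**Figure D3:**
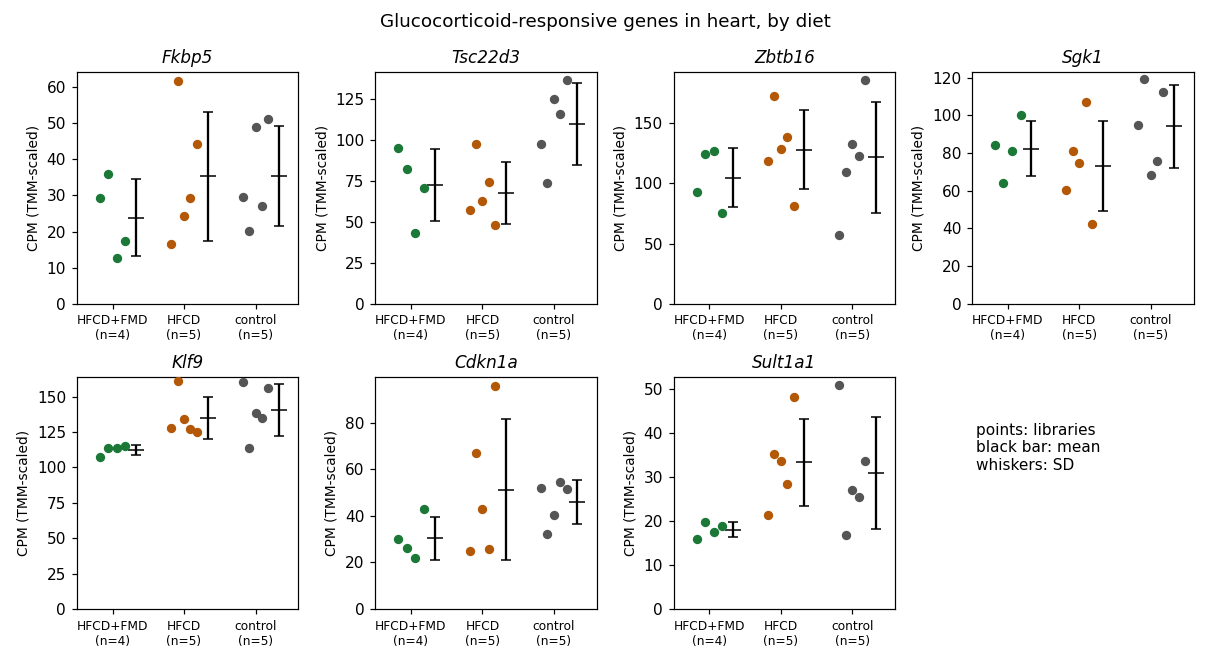
Levels of the 7 genes in heart, in TMM-scaled CPM on the vertical axis of each panel, for HFCD+FMD (n = 4), HFCD (n = 5) and control (n = 5). Points are libraries, black bars are means and whiskers are SD, before any adjustment for library set; the HFCD+FMD points of Sult1a1 lie between 15.9 and 19.7 CPM, below all HFCD points.

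Of the other glucocorticoid target genes, 29 were tested in heart, and 2 passed, both lower in HFCD+FMD than in HFCD. In HFCD+FMD against HFCD their median log2 fold change was -0.46, with 4 of 29 above 0. Over all genes that median was 0.00, and 0.106% fell and 0% rose in edgeR. Pdk4 had 485.7, 415.4, 369.1 and 346.5 CPM in HFCD+FMD hearts, against 511, 1636, 453.2, 790.5 and 3652 CPM in HFCD hearts. Its fold change was -2.77 (SE 0.47, edgeR adjusted p 0.0405) on the log2 scale. Mt2, a metallothionein that binds zinc, had -3.79 (SE 0.63, adjusted p 0.0392). HFCD replicate 5 was the highest heart library for Pdk4, and without it the fold changes were -1.95 for Pdk4 and -2.18 for Mt2, both with adjusted p 0.960. Both calls were also lost without any 1 of HFCD+FMD replicates 2, 3 and 5, HFCD replicates 2 and 4 or control replicates 3 and 6, with adjusted p up to 0.189. The number of these 29 genes that fell was 5 without HFCD+FMD replicate 1, without control replicate 2 or with only the 2 diets in the fit. It was 6 in DESeq2, and 0 in limma, with the filter of 1 CPM in 5 libraries or without the set term. In HFCD+FMD against control 4 fell without HFCD+FMD replicate 1, and 0 with all libraries. The lists of receptor cofactors (26 genes tested), p53 targets (18) and family relatives (18) held 0 genes that passed in any heart comparison in edgeR or limma; DESeq2 called 1 cofactor and 1 relative for HFCD+FMD against HFCD and 1 relative for HFCD against control, all higher. The receptor gene Nr3c1 averaged 103.5 ± 12.3 CPM in HFCD+FMD hearts (SD, n = 4), 90.0 ± 15.6 CPM in HFCD hearts (n = 5) and 79.6 ± 14.4 CPM in control hearts (n = 5).

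Whether a diet difference itself differed between the tissues was tested by an interaction term in edgeR, fitted jointly to the 12606 genes tested in both. For HFCD against control, 1 of the 7 genes passed, Sult1a1, where 22.0% of all genes passed. Its HFCD-to-control log2 fold change was 1.31 higher in heart than in adipose tissue (SE 0.33, adjusted p 0.00827), with values of 1.14 to 1.58 when 1 library was left out. The fold changes of Zbtb16 (1.07, adjusted p 0.0941) and Klf9 (0.50, adjusted p 0.0987) were also higher in heart, without passing. For HFCD+FMD against HFCD none of the 7 passed, where 0.0159% of all genes passed; the lowest adjusted p was that of Sgk1 (0.97 higher in heart, SE 0.34, unadjusted p 0.00857, adjusted p 0.397), and Sult1a1 also had an unadjusted p below 0.05.

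**Figure D4:**
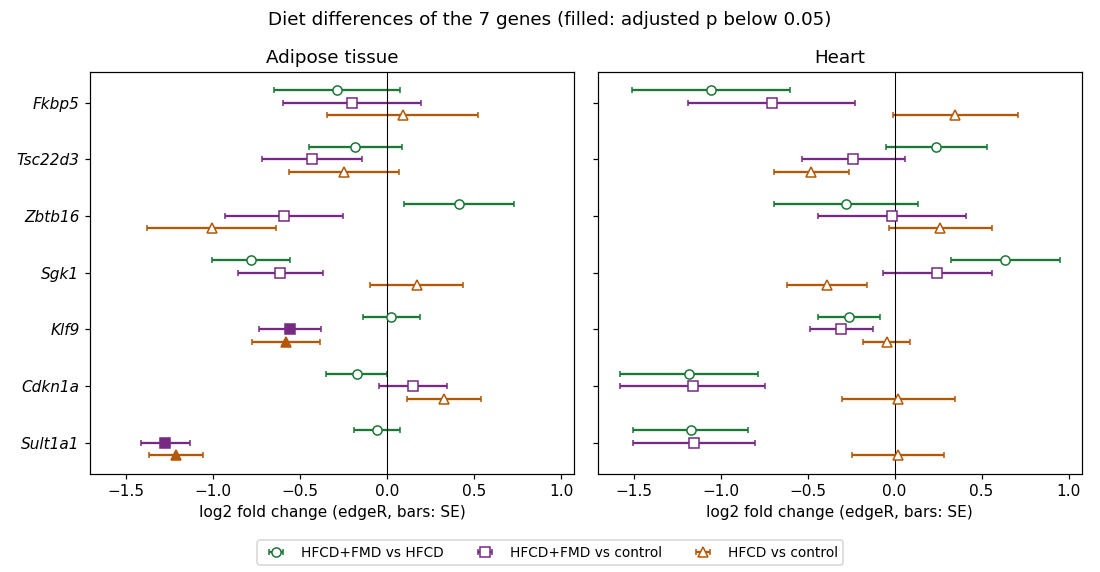
Log2 fold changes of the 7 genes between diets (horizontal axis, edgeR, bars are SE) in adipose tissue on the left and heart on the right, with circles for HFCD+FMD over HFCD, squares for HFCD+FMD over control and triangles for HFCD over control. Filled symbols have an adjusted p below 0.05; these are Klf9 and Sult1a1 in adipose tissue, each at about the same value in both comparisons with control.

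Libraries of the same diet differed from each other more in Fkbp5 than in most genes. Its SD within diets was 0.62 on the log2 scale in adipose tissue and 0.67 in heart, larger than that of 88.7% of 13610 adipose genes and 94.3% of 12253 heart genes. Zbtb16 was similar in adipose tissue, at 0.60 (87.6%). Sult1a1 was less variable in adipose tissue (0.20, 32.2%) than the median gene (0.26), and Klf9 was steady in heart (0.15, 7.9%). In heart these SDs were taken around diet means alone, and so include differences between the library sets. Among the other 6 genes, Tsc22d3 moved most closely with Fkbp5 between libraries of the same diet. Over 13 adipose libraries, deviations from the diet means of log2 CPM gave a Pearson r of 0.80 (permutation p 0.00513) and a Spearman rho of 0.75. After Benjamini-Hochberg adjustment over 12 relations (6 genes in 2 tissues), the p of r was 0.0616, so that it did not pass. Without HFCD+FMD replicate 5 and HFCD replicate 2, the libraries farthest from the median of Fkbp5, r was 0.80. In heart r was 0.71 over 14 libraries (permutation p 0.0112, adjusted 0.0672) with a rho of 0.79. It was 0.48 without HFCD+FMD replicate 3 and HFCD replicate 2, and so rested in part on these. With deviations from diet and set means it was 0.84, and within set A 0.88 (n = 7). Within set A, r with Fkbp5 was also 0.825 for Cdkn1a and 0.744 for Klf9. For Sult1a1, Zbtb16 and Sgk1 it was 0.556, 0.272 and 0.221. None of the 12 relations passed on this scale; 3 had an unadjusted permutation p below 0.05, the third being Cdkn1a in adipose tissue (r 0.62, adjusted p 0.183). On the authors' deposited log2 values 3 passed, Tsc22d3 in adipose tissue (r 0.80, adjusted p 0.0242) and in heart (r 0.84, adjusted p 0.00996) and Sult1a1 in heart (r 0.49, adjusted p 0.0242). On log2 CPM Sult1a1 in heart had r 0.47 (adjusted permutation p 0.223). The deposited heart values had lost 1 term per gene within each library set, and shuffling within diets ignored the sets. The heart p-values on that scale therefore cannot be taken at face value. The adjustment pooled the 12 relations of both tissues, so the adipose adjusted p on that scale depends on them too. The adipose r was 0.80 on both scales.

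**Figure D5:**
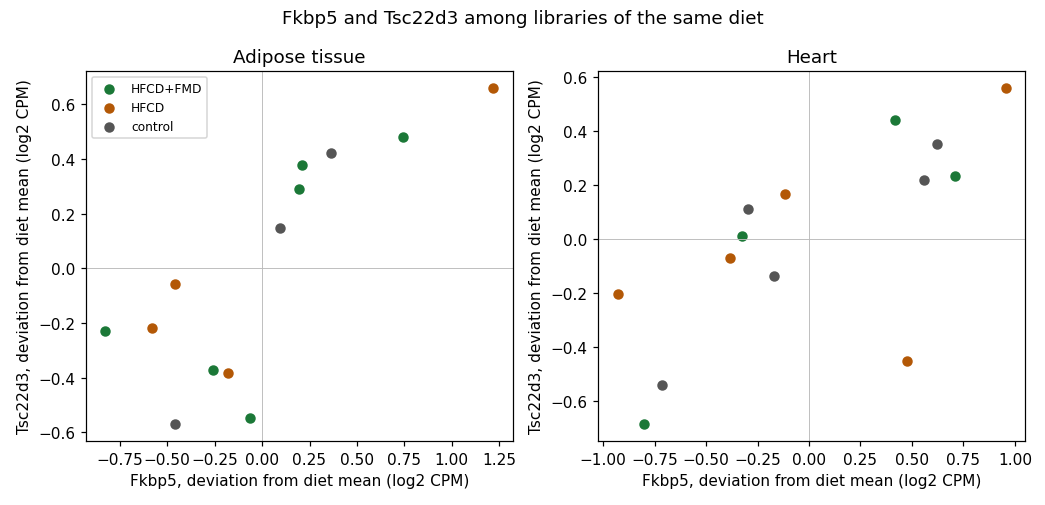
Deviation of Tsc22d3 (vertical axis) against deviation of Fkbp5 (horizontal axis) from their diet means, in log2 CPM, for each library of adipose tissue on the left and heart on the right, coloured by diet. Libraries with more Fkbp5 than others of their diet mostly had more Tsc22d3, with a Pearson r of 0.80 in adipose tissue and 0.71 in heart; 1 HFCD heart, replicate 5, departs from this with high Fkbp5 and low Tsc22d3.

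Over all libraries of a tissue, the 5 genes most like Fkbp5 in adipose tissue by Pearson r of log2 CPM were Hipk1 (0.86), Rab27a (0.85), Tsc22d3 (0.80), Sdc4 (0.77) and Slc10a6 (0.77), over 13 libraries. In heart they were Hif3a (0.91), Baiap2 (0.90), Csdc2 (0.89), Tcf23 (0.88) and Spock2 (0.87), over 14 libraries. Those most like Zbtb16 in adipose tissue were Pdcd4 (0.91), Klf15 (0.90), Cmklr1 (0.89), Cmc4 (0.89) and Syde2 (0.89). In heart they were Nudt21 (0.90), Hhipl1 (0.89), Aff1 (0.88), Pard3 (0.88) and Bcl9 (0.88). These are the highest values over all genes tested and describe these libraries only; no gene stood in more than 1 of the 4 lists.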

How the data were processed

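The counts are whole-number reads per gene that the authors deposited without normalization for each tissue; the check of these columns used every per-sample column (0 left out). The labels list 34 libraries, of which 27 were used and 7 were not analysed here. Per the labels' protocols and the design text, RNA was depleted of ribosomal RNA and sequenced on an Illumina instrument. The submitters' processing notes name STAR 2.5.3 and R 3.5.3, with edgeR, limma and build mm10; the counting program, its annotation and its use of strand are not given in the sources used here. The authors also deposited log2 CPM values, from which, in heart, 1 term per gene had been removed within each of 3 sets of libraries. These sets were recovered by comparison with the counts (largest deviation 9.8e-09), and the heart table is named as free of batch, but what the batches were is not given in the sources used here.

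Counts were fitted per tissue in R 4.3.3 with edgeR 4.0.16 (robust quasi-likelihood F-test, two-sided, TMM, filterByExpr on diet, all diets in 1 fit). The set was a factor in heart. The filter kept 15112 of 15145 adipose and 13230 of 13238 heart genes, among them all 7 genes in both tissues. CPM values are TMM-scaled, and log2 CPM has a prior count of 2. The p-values measure the spread between libraries, which the labels do not tie to animals; some mice must have given both tissues, and the joint fit treated the tissues as independent. Correlations with Fkbp5 used 100000 permutations within diets, two-sided. The script was tested on simulated data. Coordinates and exon lengths come from GENCODE M21 (GRCm38).

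The 7 genes, the gene lists and the tests were chosen with earlier results of these data known. Named genes are the 7, up to 6 passing members per list and comparison with the smallest p, 8 genes of the hormone and p53 pathways whatever their result, and the 5 genes most like Fkbp5 and Zbtb16 in each tissue. Alternatives were RLE scaling, DESeq2 1.42.0, limma 3.58.1 on the deposited log2 values, no low-count filter, at least 1 CPM in 5 libraries, only the diets compared, each library left out, no set factor and set A alone in heart. Removal of mitochondrially encoded genes was added after their shares were seen.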

Additional observations from a re-analysis of the deposited data

Results flagged for a closer look

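A gap between the highest or lowest library and its neighbours beyond Dixon's limit was looked for in groups of 4 to 10 libraries, and chance alone gives one in about 1 in 20 such groups. Of 14 adipose and 21 heart groups of the 7 genes, 2 had such a gap. Fkbp5 in adipose tissue stood at 216.1 CPM in HFCD replicate 2, where the next HFCD library had 82.1 CPM and the gap took 0.87 of the range. In the same library Tsc22d3 (327.3 CPM), Cdkn1a (207.3 CPM), Zbtb16 (119.5 CPM) and Sgk1 (115.9 CPM) were also the highest of their HFCD group. Klf9 in heart stood at 161.1 CPM in HFCD replicate 2, where the next HFCD library had 133.9 CPM and the gap took 0.749 of the range.

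The HFCD-to-control log2 fold change of Sult1a1 differed between the tissues, being 1.305 higher in heart than in adipose tissue in the joint edgeR fit (SE 0.33, adjusted p 0.00827). In the fits per tissue it was 0.02 in heart and -1.21 in adipose tissue. With the heart set as a term, or with RLE scaling, the difference was 1.20 to 1.34 and passed.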

How the results depend on the processing

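The falls of Sult1a1 in adipose tissue against control kept their direction and passed in every alternative, with log2 fold changes of -1.33 to -1.12. Of 42 fold changes of the 7 genes, 31 kept direction and side of the threshold in every fit on all libraries, and 22 also with each library left out. Control replicate 1 of adipose tissue, the library with the fewest reads and the highest mitochondrial share, changed the most of these and the other results when left out. Precision is limited by 3 control libraries in adipose tissue and, in heart, by the 2 libraries that tie HFCD+FMD to the other diets. No paired analysis was possible because the labels number no replicates, and the numbers used here only name libraries. Counts of genes that passed depended on the tool and samples, and the cause was not tested. For HFCD+FMD against HFCD in adipose tissue (31 in edgeR) there were 302 in DESeq2 and 16 in limma. For HFCD+FMD against control in adipose tissue, with only these diets, 1834 genes passed (2978 with all diets), 1 of them among the 7, as Klf9 did not pass (-0.56, adjusted p 0.0862). In heart DESeq2 called 61 genes for HFCD against control (0 in edgeR), 279 for HFCD+FMD against HFCD (14 in edgeR) and 145 for HFCD+FMD against control (3 in edgeR). Limma and the filter of 1 CPM in 5 libraries each left 0 genes for HFCD+FMD against HFCD and 1 for HFCD+FMD against control, and the fit without the set term left 0 in both. With only the diets compared, 268 genes passed for HFCD+FMD against HFCD, 1 of them among the 7 (Sult1a1), and 0 for HFCD+FMD against control. On the deposited log2 values 3 relations with Fkbp5 passed, those in heart with a shuffling that ignored the library sets. The relation in adipose tissue was adjusted together with them, so its pass depends on the heart p-values.

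With each library left out in turn, genes that passed in adipose tissue numbered 2348 to 4854 for HFCD against control, 5 to 80 for HFCD+FMD against HFCD and 663 to 3500 for HFCD+FMD against control. The 2 lowest counts against control came without control replicate 1. In heart they numbered 0 to 368 for HFCD+FMD against HFCD and 0 to 217 for HFCD+FMD against control, the highest without HFCD+FMD replicate 1. Of the 7 genes, 1 to 3 passed in adipose tissue for HFCD against control and 1 to 2 for HFCD+FMD against control, and 0 to 1 in heart for HFCD+FMD against HFCD. In the test between tissues 1 to 2 of the 7 passed for HFCD against control, and 0 to 2 relations with Fkbp5 passed.

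Fold changes that changed sign had not passed in either fit. In limma these were Fkbp5 in adipose HFCD over control (-0.074), Klf9 in adipose HFCD+FMD over HFCD (-0.011), Cdkn1a in heart HFCD over control (-0.045) and Zbtb16 in heart HFCD+FMD over control (0.0015). With only the diets compared they were, in heart HFCD over control, Klf9 (0.00011), Cdkn1a (-0.21), Sult1a1 (-0.083) and Hsd11b1 (-0.031), in heart HFCD+FMD over HFCD, Zbtb16 (0.41), Per1 (0.29), Klf15 (0.072) and Mdm2 (0.15), and in heart HFCD+FMD over control, Sgk1 (-0.11) and Hsd11b1 (0.42). In set A alone they were Cdkn1a (-0.21), Sult1a1 (-0.083) and Hsd11b1 (-0.032). Without the set term they were Mdm2 over HFCD (0.055) and Sgk1 over control (-0.19), both in HFCD+FMD hearts. Mdm2 over HFCD was 0.00039 with mitochondrial genes removed, and the difference of Fkbp5 between tissues for HFCD over control was 0.24 with the heart set added.

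The ranges below are those of results that changed sign when 1 library was left out. In adipose HFCD over control they were -0.51 to 0.29 for Fkbp5 and -0.21 to 0.051 for Ccng1. In adipose HFCD+FMD over control they were -0.026 to 0.34 for Cdkn1a and -0.00031 to 0.26 for Ccng1. In adipose HFCD+FMD over HFCD they were -0.077 to 0.10 for Klf9, -0.14 to 0.63 for Pdk4, -0.48 to 0.31 for Fkbp5 and -0.30 to 0.091 for Tsc22d3. In heart HFCD over control they were -0.023 to 0.53 for Zbtb16, -0.15 to 0.046 for Klf9, -0.032 to 0.31 for Nr3c1, -0.27 to 0.19 for Cdkn1a, -0.20 to 0.47 for Sult1a1, -0.031 to 0.34 for Hsd11b1 and -0.081 to 0.53 for Fkbp5. In heart HFCD+FMD over HFCD they were -0.25 to 0.15 for Mdm2, -0.52 to 0.30 for Per1, -1.31 to 0.41 for Zbtb16, -0.49 to 0.073 for Klf15, -0.073 to 0.44 for Tsc22d3, -0.24 to 0.75 for Nr3c1, -0.20 to 0.38 for Nr3c2, -0.67 to 0.45 for Hsd11b1 and -0.38 to 0.83 for Ccng1. In heart HFCD+FMD over control they were -0.69 to 0.42 for Hsd11b1, -0.79 to 0.95 for Zbtb16, -0.47 to 0.050 for Tsc22d3 and -0.11 to 0.69 for Sgk1. The difference of Fkbp5 between tissues was -0.40 to 0.50 for HFCD over control and -0.86 to 0.046 for HFCD+FMD over HFCD.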
